A study of Homo sapiens with 6 samples.

Results

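The genes described here are 10 regulators of the step from G1 into S phase, taken by symbol from the table of gene counts: the D-type cyclins CCND1, CCND2 and CCND3, the E-type cyclins CCNE1 and CCNE2, the cyclin-dependent kinases CDK4, CDK6 and CDK2, and the phosphatases CDC25A and CDC25B. They are 10 of the 30230 genes in that table. Polyadenylated RNA was sequenced from A549, an established non-small cell lung cancer cell line of epithelial origin that grows without a fibroblast or immune compartment. There were 3 NC control libraries and 3 siFSCN1 libraries, in which FSCN1 was silenced, and no other line, agent or time was compared. FSCN1 encodes fascin, which bundles actin filaments, and the comparison asks which transcripts differ once its messenger RNA is reduced. By the study's account the sequenced siFSCN1 cells received siFSCN1-1926 and the NC cells a scrambled siRNA, by lipid transfection, although a plasmid is named for the control in the labels and for the siRNAs in a passage of the study's text. The study calls the libraries of a group biological replicates, and the model is limited to a single line and a single siRNA.

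In G1, growth signals raise the D-type cyclins, which bind and activate CDK4 and CDK6. These kinases phosphorylate the retinoblastoma protein RB1 and so free E2F factors, which transcribe the genes of DNA replication together with CCNE1 and CCNE2. The E-type cyclins then activate CDK2, which completes the phosphorylation of RB1 and starts replication. CDC25A and CDC25B remove the inhibitory phosphates that the kinases WEE1 and PKMYT1 place on CDKs, CDC25A at the G1/S and later transitions and CDC25B mainly before mitosis.

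The targeted gene was checked first. FSCN1 was at 44.98, 47.24 and 45.99 FPKM (fragments per kilobase of transcript, scaled to the mapped fragments of the library) in the NC libraries and at 4.46, 2.82 and 3.19 FPKM in the siFSCN1 libraries. The groups were far apart, and the level left was 6.75% of that in NC (log2 fold change -3.89, SE 0.0937, edgeR quasi-likelihood test with Benjamini-Hochberg adjustment, adjusted p = 8.1e-16, n = 3 and 3). Total counts ran from 27967301 to 36560919 per library. Of 11 epithelial and A549 markers with values, 8 reached 1 FPKM in a library and NAPSA, NKX2-1 and SFTPC did not. The summed level of that list was 5923 to 6445 FPKM in NC and 4956 to 5348 in siFSCN1, and its part in the results below was not tested. The fibroblast markers (6 genes) summed to at most 0.67 FPKM, the leukocyte markers (4 genes with values) to at most 1.02 and the endothelial markers (4 genes) to at most 0.04, with no gene of these lists at 0 counts in all libraries and none reaching 1 FPKM.

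The members were searched for the 7 letters complementary to the seed, guide positions 2 to 8, of siFSCN1-1926, the stretch through which an siRNA can also bind transcripts other than its target. The siRNA sequence was taken from the study's methods and the 3′ UTRs from GENCODE release 44. The match stood once in the longest annotated 3′ UTR of FSCN1, CDC25B and CCND3 and in that of no other member. These windows are shown because they compare the intended site with the sites in the members, with the match in capitals, 5′ to 3′ on the transcript strand of build GRCh38. They lie at chr7:5605786-5605814 (plus strand), chr20:3806001-3806029 (plus strand) and chr6:41935909-41935937 (minus strand) respectively.
FSCN1: gagccttatttCTCTGGAagcggctaagg
CDC25B: gactgagcaccCTCTGGAttctgaatctc
CCND3: ctggagaggccCTCTGGAgtggccactaa
The search asked for the capitals alone, not for the bases around them. Such a match stood in 2544 of the 13326 tested genes with a 3′ UTR, or 19.1%. The median log2 fold change was -0.11 in those genes and -0.0037 in the 10782 without a match. A match is a description of the letters only, and no binding was measured.

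Most of the machinery was lower in siFSCN1. Of the 10 members, 9 had enough counts to be tested. CDK4, CDC25B, CCND1, CDC25A, CDK2, CCNE1 and CCND3 fell, CDK6 rose, and CCNE2 did not pass the test. The 7 that fell should be read against the background of this comparison: 33.2% of all 17076 tested genes were called lower and 35.1% higher, or 68.3% in either direction. The median log2 fold change was -0.65 over the 9 tested members and 0.03 over all tested genes. In CPM (the count divided by the library's size, here after TMM scaling), 7 members were lower in every siFSCN1 library than in every NC library and 1 was higher in each, beside 34.4% and 36.8% of all tested genes. A change of at least 2-fold was reached by CDK4 alone, against 4.85% of all tested genes in that direction and 16.5% in either.

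Falls were more common among abundant transcripts, and the members were mostly abundant. Among the 2812 tested genes with a mean above 10 and up to 100 FPKM, 63.8% were called lower, the median log2 fold change was -0.26, and 6.08% fell at least 2-fold. CCND1, CCND3, CCNE1, CDK4 and CDC25B belonged to this range, and 5 of 5 were called lower. Among the 7972 genes above 1 and up to 10 FPKM, 35.6% were called lower and 35.4% higher. CDK2 and CDC25A from that range fell and CDK6 rose. The study itself picked CDK4 and CDC25B as lower genes from these libraries, so their direction here is no independent evidence.

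**Figure D1:**
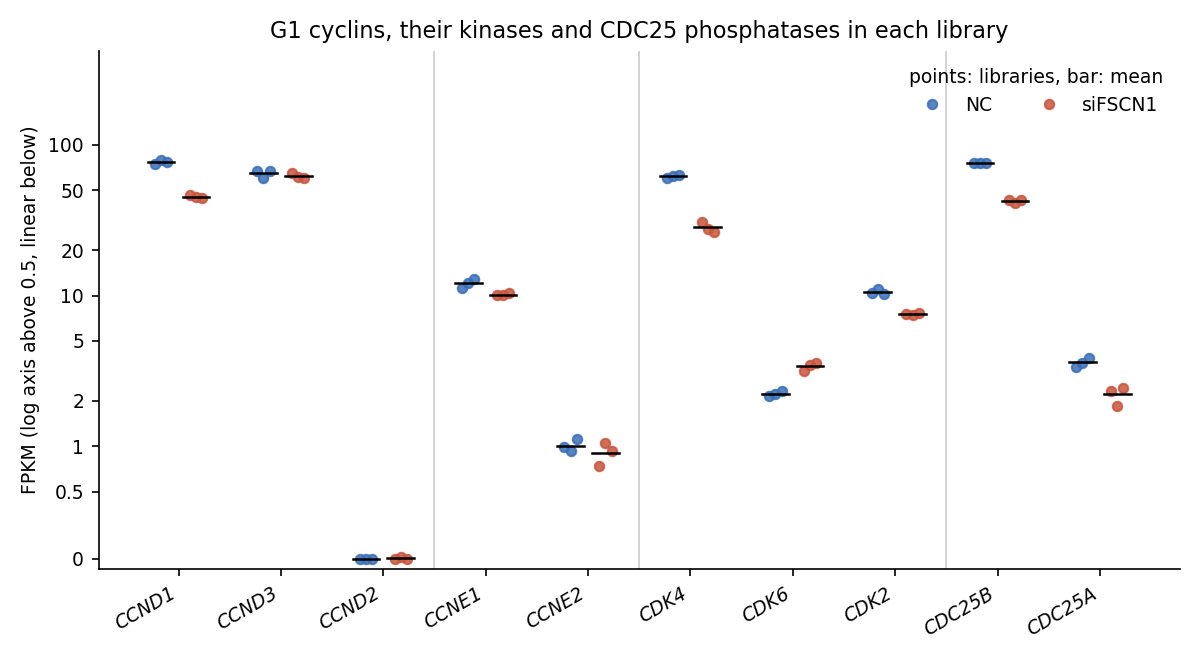
FPKM of each member (y axis, logarithmic above 0.5 and linear below) in the 3 NC libraries (blue) and the 3 siFSCN1 libraries (red), with the mean of each group as a bar. CCND1, CDK4 and CDC25B stand clearly apart between the groups, CDK6 is the member with higher points in siFSCN1, and the points of CCND3 and of CCNE2 overlap.

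CCND1, on chromosome 11 (chr11:69641156-69654474, plus strand, GRCh38), encodes cyclin D1, the D-type cyclin most often amplified in tumours. Its level was 74.7, 79.5 and 76.5 FPKM in NC and 46.6, 44.8 and 44.3 FPKM in siFSCN1. All siFSCN1 libraries lay below all NC libraries, with little spread inside either group. The mean went from 76.9 ± 2.43 to 45.2 ± 1.23 FPKM (SD, n = 3 each), and CCND1 fell to 52.4% of its NC level after TMM scaling (log2 fold change -0.93, SE 0.0367, adjusted p = 1.9e-13 in edgeR). Its exons share 497 bases with those of LTO1 on the opposite strand, and LTO1 was lower as well (log2 fold change -0.46, adjusted p = 3.4e-06 in edgeR). The strand setting of the authors' counting is not given in the sources used here, so reads from the shared bases of opposite genes cannot be told apart.

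CCND3, on chromosome 6 (chr6:41934934-42050357, minus strand), encodes cyclin D3, which activates the same kinases. It was at 66.8, 60.4 and 66.6 FPKM in NC and at 64.8, 61.2 and 60.4 FPKM in siFSCN1. On that scale the groups overlapped, and the means of 64.6 ± 3.64 and 62.1 ± 2.37 FPKM differed by less than the spread in NC. After TMM scaling the values were 488.8, 437.8 and 478.8 CPM in NC and 412.9, 400.3 and 390.8 in siFSCN1, without overlap (log2 fold change -0.22, SE 0.0423, adjusted p = 0.00014 in edgeR). With library totals as the scale the log2 fold change was -0.04 (adjusted p = 0.415), a scale on which the median of all genes was 0.22. Taken relative to the median of all genes, the difference was -0.25 on both of these scales and -0.14 with limma on log2(FPKM + 1), where CCND3 was not called (adjusted p = 0.351). In a fit that subtracted the abundance trend, added once the data had been seen, the direction turned, with a log2 fold change of 0.10 (adjusted p = 0.0528).

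CCND2, on chromosome 12 (chr12:4269771-4305353, plus strand), encodes cyclin D2 and was not detectable at this depth. It had 0 counts in 5 libraries and 3 counts in siFSCN1 replicate 2. The limit that a count of 0 allows, set at 3 counts per library and covering counting error only, was 0.0821 to 0.107 CPM. A neighbouring gene on the same strand, RP11-388F6.5 (ENSG00000285901.2), shares 999 of the 7988 exonic bases of CCND2 and did have counts, 1024, 1084 and 1285 in NC and 588, 650 and 551 in siFSCN1. That gene was lower (log2 fold change -1.11, adjusted p = 1.1e-10 in edgeR), and how the authors' counting treated bases that belong to both genes is not given in the sources used here.

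CCND3 took the place of CCND1 as the leading D-type transcript by level. CCND1 made up 52.8%, 56.8% and 53.4% of the summed D-type FPKM in the NC libraries and 41.8%, 42.2% and 42.3% in the siFSCN1 libraries. The share was lower in each siFSCN1 library, with means of 54.4 ± 2.16% and 42.1 ± 0.259% (difference -12.2 percentage points, exact two-sided permutation test, p = 0.1, the smallest p that 3 against 3 libraries allow). The sum itself went from 141.5 ± 1.61 to 107.3 ± 3.60 FPKM, again without overlap.

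**Figure D2:**
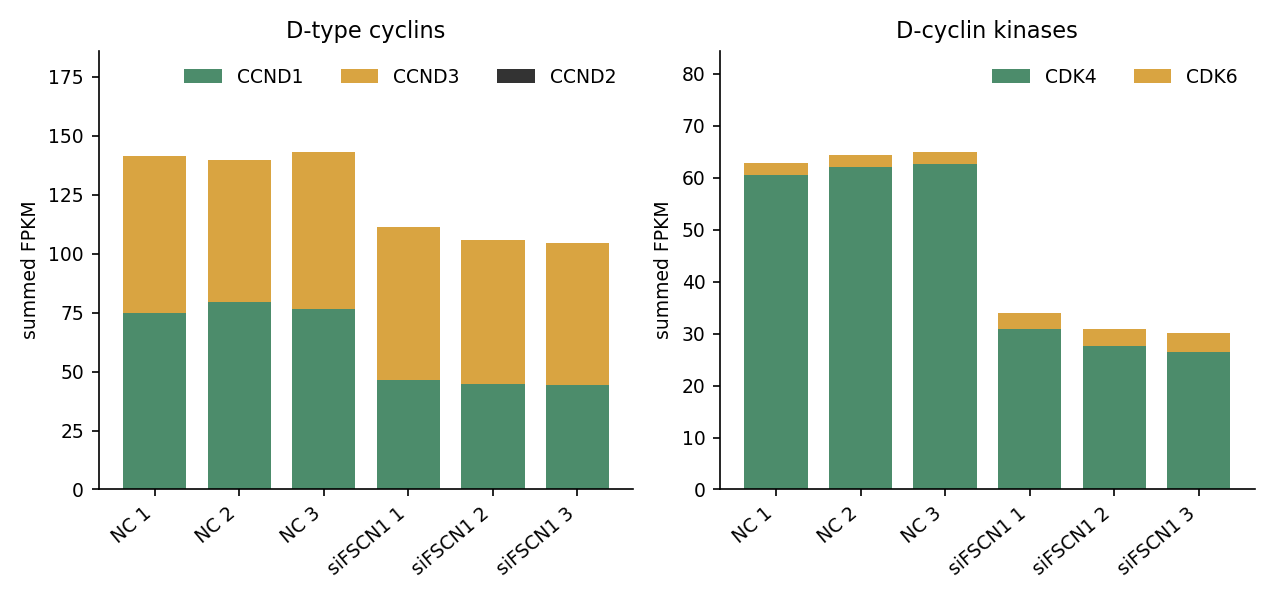
Summed FPKM (y axis, from 0) of the D-type cyclins (left) and of the D-cyclin kinases (right) in each library, stacked by gene. The CCND1 layer shrinks in the siFSCN1 libraries while CCND3 keeps a similar height and CCND2 is too low to see, and the CDK4 layer is shorter in all siFSCN1 libraries while the thin CDK6 layer is wider.

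CDK4, on chromosome 12 (chr12:57747727-57756013, minus strand), encodes a D-cyclin kinase that phosphorylates RB1 and had the largest fall of the members tested. Its level was 60.6, 62.0 and 62.6 FPKM in NC and 30.9, 27.5 and 26.5 FPKM in siFSCN1. Every siFSCN1 library was far below every NC library. The mean went from 61.8 ± 1.04 to 28.3 ± 2.29 FPKM, and after TMM scaling CDK4 was left at 40.8% of NC (log2 fold change -1.29, SE 0.0457, 95% interval -1.39 to -1.20, adjusted p = 5.1e-14 in edgeR). By fold change it stood at percentile 2.23 of all tested genes, counted from the largest fall. TSPAN31, on the opposite strand, shares 1369 of the 3094 exonic bases of CDK4, and its counts were 1006, 837 and 1114 in NC and 1046, 1111 and 984 in siFSCN1. Its difference did not pass the test (log2 fold change -0.09, SE 0.0601, adjusted p = 0.187 in edgeR), while MARCHF9, which overlaps CDK4 without sharing exonic bases, was lower (log2 fold change -0.33, adjusted p = 0.00286 in edgeR).

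CDK6, on chromosome 7 (chr7:92604921-92836573, minus strand), encodes the second D-cyclin kinase and was the member that rose. It was at 2.17, 2.22 and 2.32 FPKM in NC and at 3.17, 3.45 and 3.56 FPKM in siFSCN1. All siFSCN1 libraries lay above all NC libraries. The average rose from 2.24 ± 0.0764 to 3.39 ± 0.201 FPKM, and CDK6 reached 135% of its NC level after TMM scaling (log2 fold change 0.44, SE 0.0571, adjusted p = 2.1e-06 in edgeR). Its antisense gene CDK6-AS1 had at most 3 counts in any library.

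The rise of CDK6 was small beside the loss of CDK4. CDK4 made up 96.5%, 96.6% and 96.4% of the summed FPKM of both kinases in NC and 90.7%, 88.9% and 88.2% in siFSCN1. CDK4 remained the predominant kinase in each library, with a lower share in all siFSCN1 libraries (difference of means -7.27 percentage points, exact two-sided permutation test, p = 0.1, the smallest p possible). The summed level went from 64.0 ± 1.11 to 31.7 ± 2.09 FPKM, with no overlap between the groups.

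CCNE1, on chromosome 19 (chr19:29811991-29824312, plus strand), encodes cyclin E1, the partner of CDK2 at the start of S phase. Its level was 11.18, 12.18 and 12.86 FPKM in NC and 10.05, 10.04 and 10.34 FPKM in siFSCN1. The siFSCN1 libraries were all lower and lay close together. On average the level went from 12.1 ± 0.845 to 10.1 ± 0.170 FPKM, and CCNE1 fell to 74.9% of NC after TMM scaling (log2 fold change -0.42, SE 0.0548, adjusted p = 2.1e-06 in edgeR). No annotated gene overlaps it.

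CCNE2, on chromosome 8 (chr8:94879770-94896678, minus strand), encodes cyclin E2 and was scarce. It was at 0.99, 0.93 and 1.11 FPKM in NC and at 0.74, 1.05 and 0.93 FPKM in siFSCN1. The groups overlapped, siFSCN1 replicate 2 lying inside the NC range. The log2 fold change was -0.32 with a 95% interval of -0.61 to -0.025 before adjustment and an adjusted p of 0.0511 in edgeR, next to the threshold of 0.05. Over the alternative fits the adjusted p ranged from 0.0038 to 0.421 and was under the threshold in 6 of 16, so whether CCNE2 fell depends on the fit. CCNE2 shares 1629 of its 4397 exonic bases with INTS8 on the opposite strand, which was lower (log2 fold change -0.27, adjusted p = 0.000187 in edgeR). CCNE1 made up 92.3 ± 0.555% of the E-type FPKM in NC and 91.8 ± 1.31% in siFSCN1, a difference of -0.468 percentage points that was smaller than the spread in siFSCN1 (exact two-sided permutation test, p = 0.6).

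CDK2, on chromosome 12 (chr12:55966781-55972789, plus strand), encodes the kinase that E-type and A-type cyclins activate. It was at 10.4, 11.1 and 10.2 FPKM in NC and at 7.53, 7.44 and 7.67 FPKM in siFSCN1. The groups did not overlap, and the siFSCN1 libraries were the tighter of them. The mean went from 10.6 ± 0.449 to 7.55 ± 0.116 FPKM, and CDK2 fell to 63.8% of NC after TMM scaling (log2 fold change -0.65, SE 0.0522, adjusted p = 3.3e-09 in edgeR). Of its opposite-strand neighbours, PMEL (89 shared exonic bases, log2 fold change -0.28, adjusted p = 0.189) and RP11-973D8.4 (565 shared bases, log2 fold change -0.61, adjusted p = 0.156) did not pass the edgeR test, and both were far scarcer than CDK2.

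CDC25B, on chromosome 20 (chr20:3786772-3806121, plus strand), encodes the phosphatase that starts the activation of CDK1 before mitosis. Its level was 75.1, 75.5 and 75.5 FPKM in NC and 43.3, 41.0 and 42.9 FPKM in siFSCN1. The NC libraries were nearly equal and the siFSCN1 libraries all well below them. The mean went from 75.4 ± 0.195 to 42.4 ± 1.23 FPKM, and CDC25B was left at 50.1% of NC after TMM scaling (log2 fold change -0.997, SE 0.0356, 95% interval -1.07 to -0.92, adjusted p = 5.6e-14 in edgeR). It thus lay just short of the 2-fold limit that CDK4 passed, and no annotated gene overlaps it.

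CDC25A, on chromosome 3 (chr3:48157146-48188417, minus strand), encodes the phosphatase that activates CDK2. It was much scarcer, at 3.38, 3.59 and 3.88 FPKM in NC and 2.33, 1.86 and 2.43 FPKM in siFSCN1. Again all siFSCN1 libraries lay below all NC libraries. Mean levels were 3.62 ± 0.251 and 2.21 ± 0.304 FPKM, and CDC25A fell to 54.4% of NC after TMM scaling (log2 fold change -0.88, SE 0.0991, adjusted p = 3.1e-07 in edgeR). CDC25A made up 4.58 ± 0.295% of the summed FPKM of CDC25A and CDC25B in NC and 4.94 ± 0.531% in siFSCN1, and these shares overlapped (difference 0.359 percentage points, exact two-sided permutation test, p = 0.3, and 0.147 to 0.656 with each library left out in turn). The summed level went from 79.0 ± 0.416 to 44.6 ± 1.53 FPKM.

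**Figure D3:**
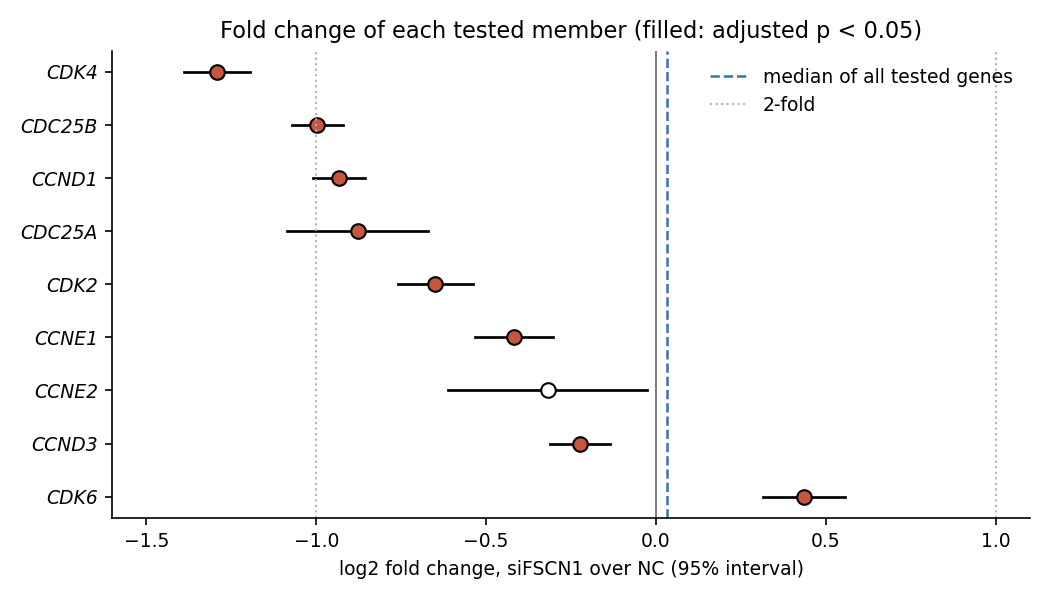
Log2 fold change of siFSCN1 over NC (x axis) for the 9 tested members, with 95% intervals as lines and filled points where the adjusted p was under 0.05. The fall was largest for CDK4 (-1.29), CDC25B lies on the dotted 2-fold line, CDK6 (0.44) alone lies right of 0, and the dashed line marks the median of all tested genes at 0.03.

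The order of the levels per length changed accordingly. In NC the means ran from CCND1 (76.9 FPKM) and CDC25B (75.4 FPKM), whose ranges overlapped, to CCND3 and CDK4 (64.6 and 61.8 FPKM), whose ranges also overlapped, and then to CCNE1, CDK2, CDC25A, CDK6, CCNE2 and CCND2, each separate from the next. In siFSCN1 the order was CCND3, CCND1, CDC25B, CDK4, CCNE1, CDK2, CDK6, CDC25A, CCNE2 and CCND2, and no neighbours overlapped. Cyclin D3 moved to the front, and CDK6 passed CDC25A. In bulk RNA such levels cannot tell fewer cells in a phase of the cycle from less RNA per cell.

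Promoter sequence was available for CCND3, CCNE1, CDK4, CDK6, CDC25A and CDC25B, 6 of the 10 members, in the RefSeq table of GRCh38.p14 (250 bases before to 50 after each listed start, 35116 windows). CCND1, CCND2, CCNE2 and CDK2 are named only. An E2F motif, spelled TTTCCCGC, TTTCGCGC, TTTGCCGC or TTTGGCGC on either strand, stood in the window of CDC25A alone among them, 44 bases before the start (position -44), and in 3.31% of all windows. The CDK4 window held 3 copies of the E-box CACGTG, the letters recognised by MYC and related factors, at -216, -196 and -101, and the first listed start of CDK6 held a copy at 31 bases after it. The E-box, chosen after the sequences had been seen, stood in 7.26% of all windows. The windows of CDK4, at chr12:57752261-57752560, and of CDC25A, at chr3:48188368-48188667, are shown. They were picked because they belong to a kinase and a phosphatase that fell and hold these motifs. The CDK4 window follows the RefSeq start, which lies inside the longer GENCODE span given for the gene, and the positions are counted from that RefSeq start. Both windows are read 5′ to 3′ on the minus strand, with the E-boxes of CDK4 and the E2F motif of CDC25A in capitals.
CDK4: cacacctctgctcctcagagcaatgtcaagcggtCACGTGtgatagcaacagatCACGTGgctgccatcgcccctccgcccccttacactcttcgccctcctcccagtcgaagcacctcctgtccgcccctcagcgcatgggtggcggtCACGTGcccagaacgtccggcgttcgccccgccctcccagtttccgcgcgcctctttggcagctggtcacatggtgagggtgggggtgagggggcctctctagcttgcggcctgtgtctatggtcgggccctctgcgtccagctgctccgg
CDC25A: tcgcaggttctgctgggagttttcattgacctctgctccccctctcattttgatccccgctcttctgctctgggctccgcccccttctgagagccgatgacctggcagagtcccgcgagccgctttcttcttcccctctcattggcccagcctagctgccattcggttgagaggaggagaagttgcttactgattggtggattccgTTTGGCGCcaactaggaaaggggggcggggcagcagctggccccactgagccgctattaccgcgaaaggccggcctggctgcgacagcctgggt
The CCAAT box, CCAAT on either strand (34.6% of all windows), stood at -110 and -58 in CDC25A and once each in windows of CCND3 and CDC25B at 2 of their alternative starts. The cell cycle homology region, TTTGAA (15.2% of all windows), stood in none of the member windows. These matches describe letters, not occupied sites, and no binding of a factor was measured.

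The other genes of the pathway were read from 13 lists of 124 genes, of which 120 could be tested. Of these, 70 were lower, 23 were higher and 27 did not pass the test, and 15 changed at least 2-fold. Over all tested genes 33.2% were lower, 35.1% higher and 16.5% changed at least 2-fold, so the share of pathway genes past 2-fold was no larger than that background. The median log2 fold change was -0.27, beside 0.03 over all tested genes. CDKN2A, CDKN2B and CDK15 were not analysed here, and CDK3 was too low to test.

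The genes that E2F factors transcribe for replication moved together. Of the 20 listed, 20 were lower, with a median log2 fold change of -0.85, beside 33.2% of all tested genes called lower and 63.8% of those above 10 and up to 100 FPKM. PCNA lay above that range, and POLA1, for example, below it. MCM7, a subunit of the replicative helicase, had the largest fall, from 73.3 ± 1.13 to 35.6 ± 2.25 FPKM (log2 fold change -1.21, adjusted p = 2.4e-14 in edgeR), and the study had itself picked it from these libraries. GINS2, CDC45 and MCM6 also fell at least 2-fold, with log2 fold changes of -1.04, -1.02 and -1.05. At the other end stood GINS1 and POLA1, with log2 fold changes of -0.34 and -0.35. PCNA, the sliding clamp of the polymerase, went from 240.3 to 186.9 FPKM (log2 fold change -0.53, adjusted p = 3.4e-10 in edgeR).

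**Figure D4:**
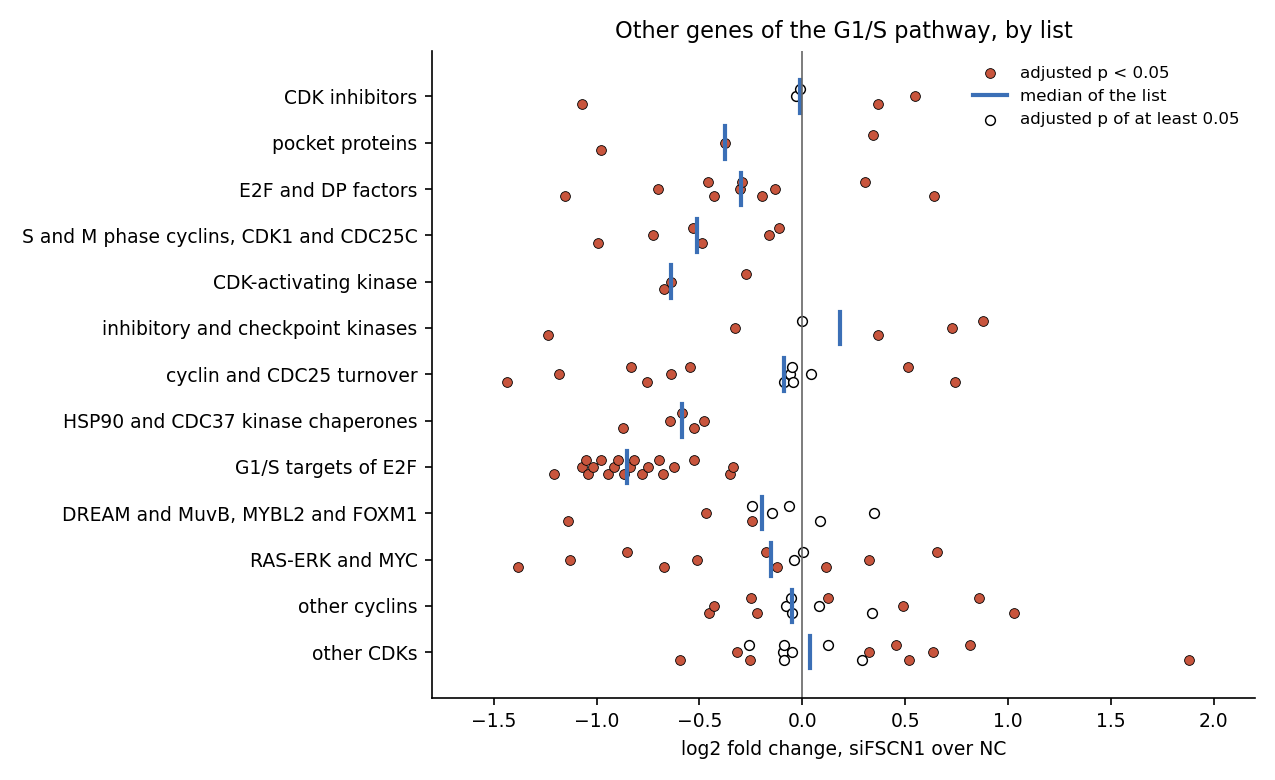
Log2 fold change of siFSCN1 over NC (x axis) of each tested gene in the 13 pathway lists (y axis), filled where the adjusted p was under 0.05, with the median of each list as a blue line. The E2F target list lies wholly left of 0 around its median of -0.85, as do the shorter lists of S and M phase cyclins, CDK-activating kinase and kinase chaperones, while the other lists reach both sides.

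The CDK inhibitors changed in both directions. Of 5 tested, 1 was lower, 2 were higher and 2 did not pass, and of 3 pocket proteins 2 were lower and 1 was higher. Among all tested genes 33.2% were called lower, 35.1% higher and 68.3% in either direction. CDKN1A, which encodes the CDK inhibitor p21, fell from 71.5 ± 0.279 to 38.2 ± 1.08 FPKM (log2 fold change -1.07, adjusted p = 3.1e-14 in edgeR). CDKN2C, which encodes p18, an inhibitor of CDK4 and CDK6, rose from 6.56 ± 0.185 to 10.8 ± 0.284 FPKM (log2 fold change 0.55, adjusted p = 3.3e-08 in edgeR), CDKN1B (p27) rose with a log2 fold change of 0.37, and CDKN1C and CDKN2D did not pass. Of the pocket proteins, the substrates of these kinases, RB1 fell (log2 fold change -0.98, from 2.53 ± 0.0954 to 1.44 ± 0.0306 FPKM) and RBL1 fell too (-0.38), whereas RBL2 rose (0.34). Among the E2F and DP factors 8 of 10 were lower (33.2% of all tested genes), led by E2F2 (-1.15), and the 2 that rose were E2F3 (0.64) and E2F6 (0.31).

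The later cyclins and the enzymes that act on CDKs were also measured. All 6 of the S and M phase genes were lower after TMM scaling, with a median log2 fold change of -0.51. Called lower were 33.2% of all tested genes and 63.8% of those above 10 and up to 100 FPKM. CCNB1, the mitotic cyclin B1, fell most (90.4 ± 2.90 to 50.9 ± 0.453 FPKM, log2 fold change -0.99, adjusted p = 9.5e-14 in edgeR). CCNB2 (-0.11) and CDK1 (-0.16) fell least, and their mean FPKM was not lower. CCNB2 was at 24.6 ± 0.877 FPKM in NC and 25.5 ± 0.240 in siFSCN1, and CDK1 at 29.1 ± 1.69 and 29.1 ± 1.96. Whether CCNB2 and CDK1 fell thus depends on the scale. The 3 subunits of the CDK-activating kinase, which phosphorylates CDKs so that they become active, were lower too, with CCNH at -0.67. CCNH and MNAT1, like CCNF and CDC25C of the S and M phase genes, lay above 1 and up to 10 FPKM. In that range 35.6% of the tested genes were called lower, beside 33.2% of all tested genes. Of the inhibitory kinases that oppose CDC25, PKMYT1 fell (from 9.15 ± 0.481 to 4.36 ± 0.142 FPKM, log2 fold change -1.24) and WEE1 rose (from 2.39 ± 0.135 to 4.43 ± 0.178 FPKM, log2 fold change 0.73, adjusted p = 2.1e-09 in edgeR). The checkpoint kinase genes ATM (log2 fold change 0.88) and ATR (0.37) rose, CHEK1 fell and CHEK2 did not pass. Both genes that rose were scarce, ATM at 0.23 FPKM in NC and 0.48 in siFSCN1, and ATR at 0.63 and 0.91. Rises were common in that scarcest range, at most 1 FPKM on average. There 42.9% of the tested genes were called higher, and the median log2 fold change was 0.40.

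Among 13 genes for the breakdown of cyclins and CDC25, 6 were lower, 2 were higher and 5 did not pass, beside 33.2% lower and 68.3% in either direction among all tested genes. FZR1, an activator of the anaphase-promoting complex, had the largest fall (log2 fold change -1.44, from 4.41 ± 0.217 to 1.83 ± 0.204 FPKM), and BTRC, a ligase subunit that targets CDC25A, rose (0.51). All 5 genes of the HSP90 and CDC37 chaperones, which fold CDK4 among other kinases, were lower, with PTGES3 at -0.87. Called lower were the same 33.2% of all tested genes and 63.8% of those above 10 and up to 100 FPKM. HSP90AA1 (162.6 FPKM in NC and 116.7 in siFSCN1) and HSP90AB1 (402.2 and 313 FPKM) lay above that range, as did PTGES3 in NC (126.9 FPKM). No share is given here for genes above 100 FPKM. In the list of DREAM and MuvB subunits, MYBL2 and FOXM1, 3 of 8 genes were lower and 5 did not pass, beside 33.2% of all tested genes called lower. MYBL2 (-1.14) had the largest fall of that list. Upstream, in the RAS-ERK and MYC list, 7 genes were lower, 3 were higher and 2 did not pass (33.2% and 35.1% of all tested genes), and ARAF, a RAF kinase, had the largest fall (log2 fold change -1.38, from 17.2 ± 0.362 to 7.38 ± 0.686 FPKM).

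The cyclins and kinases that belong to other processes showed no common direction. Of 13 other cyclins, 4 were lower, 4 were higher and 5 did not pass, beside 33.2% lower and 35.1% higher among all tested genes. CCNL2, a cyclin of the splicing-related kinases, rose most among those at 1 FPKM or more (from 4.16 ± 0.176 to 9.54 ± 0.202 FPKM, log2 fold change 1.03), and CCNK fell most (-0.46). Of 16 other CDKs that could be tested, 3 were lower, 6 were higher and 7 did not pass, beside the same shares. CDK5 stood at -0.60 and CDK19 at 0.81. CDK11A and CDK11B are near-identical copies, and by the study's methods only uniquely mapped reads were counted. How well their reads could be told apart was not examined, so the call of CDK11A as higher is uncertain.

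Genes that followed the same pattern over the 6 libraries were looked up for the members at both ends. The nearest to CDK4 by Pearson r of log2 CPM were MPDU1 (r = 0.9999), TSPAN15 (0.9998) and DNAJC8 (0.9998), with log2 fold changes of -1.67, -1.89 and -0.49. Of the 5317 genes compared, 1088 reached an r of 0.99, so the nearest genes are few of many with this pattern. For CDK6 the nearest were PRKAA1 (0.9982), CAP2 (0.9979) and ITGAV (0.9974), with log2 fold changes of 0.57, 0.52 and 0.53, and 37 of 5318 genes reached 0.99. These values describe 6 libraries that share their groups.

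**Figure D5:**
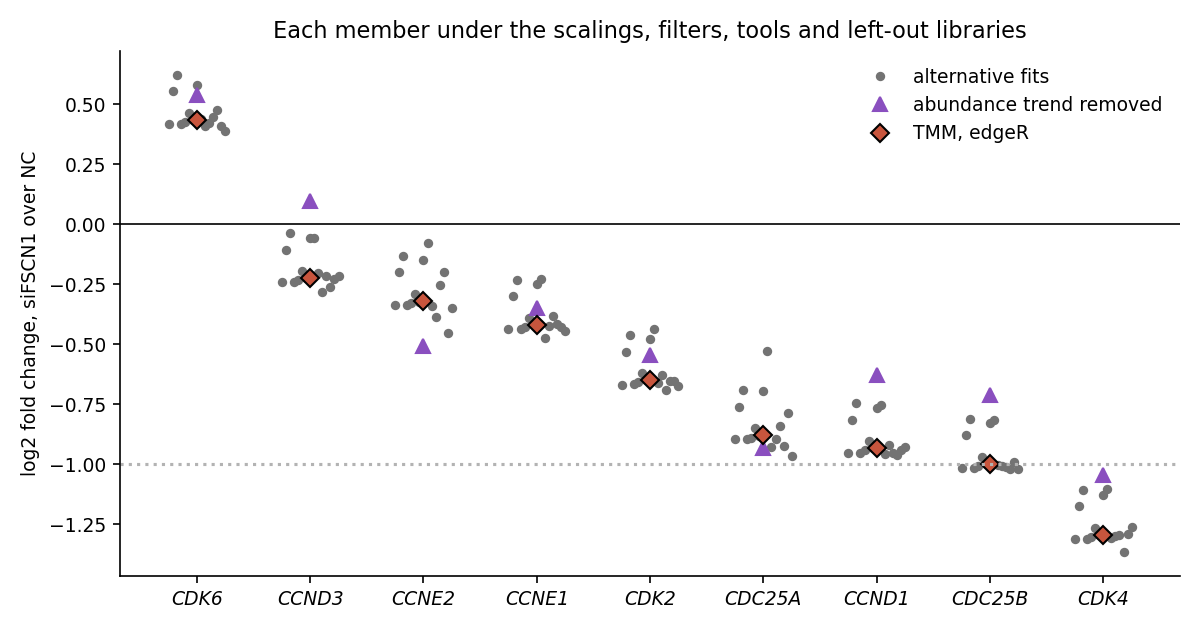
Log2 fold change of siFSCN1 over NC (y axis) of each tested member under the TMM and edgeR fit (red diamonds) and under 16 alternative fits (grey points, and a purple triangle where the trend of fold change with abundance was removed). CDK6 stays above 0 and CDK4, CDC25B, CCND1, CDC25A, CDK2 and CCNE1 below it in all of these fits, and CCND3 crosses 0 where the abundance trend was removed.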

How the data were processed

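Per the labels, polyadenylated RNA of A549 cells was made into strand-specific libraries. The authors, by their methods, trimmed reads with the FASTX Toolkit, aligned them to GRCh38 with HISAT2 (the submitters' processing notes name TopHat2 and bcl2fastq) and counted uniquely mapped reads per gene. They deposited whole-number counts for 30230 genes and, from the same reads, FPKM values rounded to 2 decimals for 29899 genes, with all 6 libraries of both groups in each table. The annotation release and the strand setting of the counting are not given in the sources used here. Replicates were not pooled.

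From the deposited counts, genes with low counts were removed with filterByExpr, which left 17076, libraries were scaled by TMM, and siFSCN1 was compared with NC without covariates in edgeR 4.0.16 (quasi-likelihood test, R 4.3.3), with Benjamini-Hochberg adjustment over all tested genes and a threshold of 0.05. The study's own test, DESeq2 (1.42.0 here), was an alternative, as were limma 3.58.1 on log2(FPKM + 0.1) and log2(FPKM + 1), other scalings and filters, a replicate block, and leaving out each library in turn. Levels of different genes, their sums and shares used FPKM, with exact permutation tests. TMM scaling set the log2 ratio of siFSCN1 to NC lower than FPKM did, for example at -0.93 against -0.77 for CCND1. The edgeR script was tested on simulated data. Coordinates and overlaps come from GENCODE release 44, which held 30128 of the 30211 gene identifiers. Same-numbered libraries did not deviate together (correlations -0.0347, 0.0398 and -0.0841), so the numbers were not taken as pairs.

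The members and pathway lists were chosen with earlier results of these data known. Named genes were all members, FSCN1, in each list the largest rise and fall past the threshold with a mean of at least 1 FPKM in the higher group, genes overlapping a member, and for the members with the largest fall and rise the 3 genes most like them by Pearson r. CDKN1B, CDKN1C, CDKN2D, RBL1, E2F6, CCNB2, CDK1, CCNF, CDC25C, MNAT1, ATM, ATR, CHEK1, CHEK2, HSP90AA1, HSP90AB1, GINS1, GINS2, CDC45, MCM6, POLA1, PCNA and the CDK11 pair were added to the text after their values were seen. Some pathway genes are not reported here. Counting intervals and limits cover counting error only.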

Additional observations from a re-analysis of the deposited data

How the results depend on the processing

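Under 16 alternative fits, the members kept their direction except CCND3. The number of members called lower was 6 to 8 and the number called higher was 1 in each fit, while the pathway genes called lower numbered 53 to 71 and those called higher 21 to 34. FSCN1 ranged from -4.11 to -3.41 in log2 fold change, CDK4 from -1.36 to -1.05 and CDK6 from 0.39 to 0.62. CDC25B sat at the 2-fold limit, so the number of members changed at least 2-fold was 2 instead of 1 with RLE scaling, with DESeq2 and with no filter beyond 1 count, and 1 to 2 when each library was left out in turn. CCND3 was not called with library totals (adjusted p = 0.415), nor with limma on log2(FPKM + 0.1) (0.35) or on log2(FPKM + 1) (0.351). After removal of the trend of fold change with abundance, an alternative chosen after seeing the data, its log2 fold change was 0.10 (adjusted p = 0.0528). CCNE2 passed the threshold with RLE scaling (adjusted p = 0.0383), no filter (0.0373), without NC replicate 2 (0.0361), without siFSCN1 replicate 2 (0.0121) and with the abundance trend removed (0.0038). With a replicate block its adjusted p was 0.0475, which made 8 members lower, and the block changed no other call of a member. Same-numbered libraries share only a number. The causes of these shifts were not tested. The difference in the CCNE1 share ranged from -1.14 to 0.17 percentage points with each library left out, the sign turning without siFSCN1 replicate 2, while the differences in the shares of CDK4 (-8.00 to -6.73), CCND1 (-13.0 to -11.0) and CDC25A kept theirs. That of CDC25A moved from 0.359 to 0.222 without NC replicate 1, 0.656 without siFSCN1 replicate 2 and 0.147 without siFSCN1 replicate 3. Scaling moved the median log2 fold change of all genes from 0.03 to 0.15 (upper quartile), 0.22 (library totals) and 0.17 (limma on log2(FPKM + 0.1)), and 0.13 without a filter. Depth limited CCND2, at or under 3 counts in every library, and CCNE2, at 124 to 209 counts, and 3 libraries a group limit every exact permutation test to p = 0.1.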
